A study of Mus musculus with 6 samples.

Results

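Tectorial and otoconial membrane genes were followed in organoids grown from mouse cochlear progenitor cells and kept in a stiff or a soft hydrogel. The 7 genes were chosen by name. Tecta, Tectb, Otog, Otogl and Otoa form the tectorial set, and Oc90 and Otol1 form the otoconial set. All 7 had a row among the 15016 genes of the deposited expression table. They were picked with the stiff-against-soft result of these same libraries already known, so the size and direction of their own changes are given as a description, with no test.

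The tectorial membrane is a sheet of extracellular matrix that lies over the hair cells of the cochlea, and it is secreted during development by the cells of the greater epithelial ridge and by supporting cells. The otoconial membrane is its counterpart over the utricle and saccule of the vestibular system, where a protein scaffold holds crystals of calcium carbonate. Several of these proteins are shared between both structures in the mouse: otogelin and alpha-tectorin are also found in the otoconial membrane. Loss of Tecta, Otog or Otoa impairs hearing in mouse and human, and mice without Oc90 form abnormal otoconia.

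RNA-seq was available for 6 libraries of wild-type organoids, 3 from stiff gels and 3 from soft gels. The organoids entered the gels, which were made of modified gelatin and hyaluronic acid carrying an RGD peptide, at the differentiation stage. Per the labels' protocols, every organoid had first been expanded for 8 to 10 days with EGF, bFGF, IGF, the GSK3 inhibitor CHIR99021, valproic acid, a stable form of ascorbic acid and the TGF-beta receptor inhibitor 616452. Both groups were then differentiated in a medium with 3 µM CHIR99021 and 5 µM LY411575, which inhibits gamma-secretase and so the release of active Notch. The labels state no stiffness value, no time in the gel and no age of the animals. The labels number the libraries 1 to 3 in each group without saying whether these were separate cultures, so the spread between them may be technical.

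Reads rebuilt from the deposited values numbered 16108470 to 17899391 per library. Across all genes, soft replicate 1 stood between the groups on the first principal component, at 1.94, with the stiff libraries at -11.7, -7.89 and -17.3 and the other soft libraries at 16.1 and 18.9. By limma on log2(FPKM + 1), at a Benjamini-Hochberg adjusted p under 0.05, stiff gels had 369 higher genes (3.13% of the 11780 tested) and 316 lower genes (2.68%), or 5.81% in either direction. An unadjusted limma p under 0.05 was reached by 2562 of the 11780, in either direction, and this is the background for the unadjusted counts below. FPKM divides each gene's fragments by its length and by the depth of the library, so levels of different genes can be set side by side.

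All 7 genes had a higher mean in stiff gels than in soft gels, and in 6 of the 7 every stiff library lay above every soft library. Among all tested genes, 15.5% had every stiff library above every soft library and 10.4% had every stiff library below. The exception was Tectb. By the test across all genes, 5 of the 7 were called higher (Tecta, Otog, Otoa, Oc90 and Otol1), against a background of 3.13%, 0 were called lower, and Otogl and Tectb were not called. Nothing is read from that count, because the genes were chosen with it known. The median log2 fold change of the 7 genes was 1.07, beside 0.03 over all tested genes. In the authors' deposited table the same 5 genes were higher at q under 0.05, a mark that 3.44% of the listed genes reached. In bulk RNA, fewer cells that express a gene and less RNA per cell cannot be told apart.

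**Figure D1:**
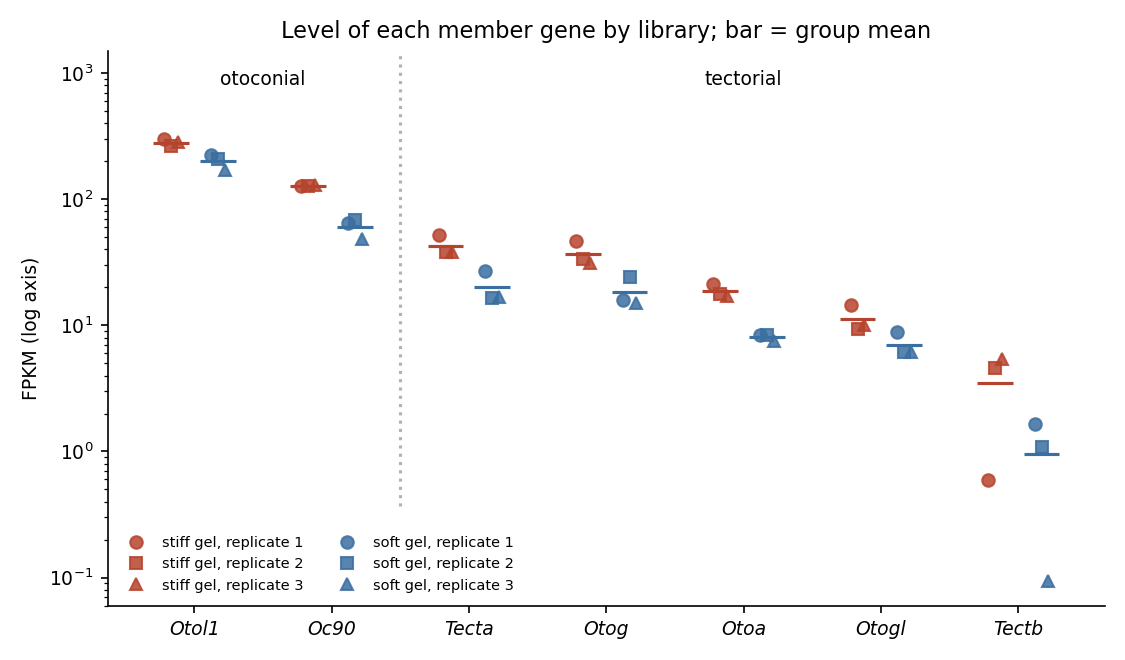
Level of each member gene in FPKM on a log axis, with stiff libraries in red at the left and soft libraries in blue at the right of each gene; bars are group means of 3 libraries. The 2 otoconial genes lie above the 5 tectorial genes in both gels, and only Tectb has libraries of the 2 gels that overlap.

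Tecta encodes alpha-tectorin, the main non-collagenous protein of the tectorial membrane, which carries von Willebrand D domains and a zona pellucida domain for filament assembly (chromosome 9, 42329619 to 42399929, minus strand, build mm10). Its level was 51.7, 38.4 and 38.1 FPKM in stiff replicates 1 to 3, against 26.7, 16.4 and 16.8 FPKM in soft replicates 1 to 3. The highest library of each gel was replicate 1, and the gap between the lowest stiff and the highest soft library was 11.4 FPKM. The means were 42.8 ± 7.77 FPKM in stiff gels and 19.9 ± 5.88 FPKM in soft gels (SD, n = 3 each), a log2 fold change of 1.08 ± 0.18 (SE). An antisense gene, Gm47629, lies inside Tecta on the other strand, and the library kit does not mark strand, so reads of both cannot be told apart.

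Tectb encodes beta-tectorin, a shorter zona pellucida protein that forms the striated-sheet matrix of the tectorial membrane together with alpha-tectorin (chromosome 19, 55180733 to 55196313, plus strand). It was the lowest of the 7 genes, at 0.593, 4.58 and 5.38 FPKM in stiff gels, against 1.66, 1.09 and 0.0945 FPKM in soft gels. These values came from 25, 186 and 205 reads in the stiff libraries and from 68, 46 and 4 reads in the soft libraries. Stiff replicate 1, the library with the most Tecta, held less Tectb than soft replicates 1 and 2, so the groups overlapped. Tecta exceeded Tectb 87.3-fold in stiff replicate 1 and 8.40-fold and 7.09-fold in stiff replicates 2 and 3, against 16.1-fold, 15.0-fold and 177-fold in soft replicates 1 to 3. The log2 fold change of Tectb was 1.07 ± 0.50 (SE). Tectb entered the test only through the stiff group, since its mean was 3.52 FPKM there and 0.947 FPKM in soft gels, under the minimum of 1 FPKM.

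Otog encodes otogelin, a large glycoprotein related to secreted mucins that is found in all acellular membranes of the mouse inner ear (chromosome 7, 46240987 to 46311434, plus strand). It was at 46.5, 33.3 and 31.2 FPKM in stiff gels, against 15.9, 24.0 and 15.0 FPKM in soft gels. Soft replicate 2 was the highest soft library for Otog, whereas soft replicate 1 was the highest for Tecta. The ratio of Tecta to Otog was 1.11 to 1.22 in the stiff libraries, against 0.683 to 1.68 in the soft libraries. The log2 fold change of Otog was 0.98 ± 0.19 (SE).

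Otogl encodes the otogelin-like protein, a paralog of otogelin (chromosome 10, 107760531 to 107912134, minus strand). It was at 14.5, 9.37 and 10.1 FPKM in stiff gels, against 8.85, 6.15 and 6.12 FPKM in soft gels. The groups were separated by only 0.521 FPKM, between stiff replicate 2 and soft replicate 1. Its log2 fold change was 0.61 ± 0.17 (SE), the smallest of the tectorial genes, and it was called only with the replicate number as a block, with limma-voom on rebuilt reads or without soft replicate 1. Otog exceeded its paralog 3.09-fold to 3.55-fold in the stiff libraries, against 1.80-fold to 3.89-fold in the soft libraries, so that ratio overlapped between the gels.

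Otoa encodes otoancorin, a protein related to mesothelin that anchors the tectorial membrane to the interdental cells of the spiral limbus (chromosome 7, 121081650 to 121163097, plus strand). It was at 21.1, 17.7 and 17.1 FPKM in stiff gels, against 8.36, 8.45 and 7.54 FPKM in soft gels. Every stiff library lay at least 8.66 FPKM above every soft library, and soft replicate 1 was no nearer to the stiff libraries than soft replicate 2. The means were 18.6 ± 2.16 FPKM in stiff gels and 8.12 ± 0.50 FPKM in soft gels (SD, n = 3 each), a log2 fold change of 1.10 ± 0.09 (SE).

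Oc90 encodes otoconin-90, the main matrix protein of mouse otoconia, which is built from domains related to secretory phospholipase A2 (chromosome 15, 65876053 to 65912397, minus strand). It was at 127, 127 and 129 FPKM in stiff gels, against 64.4, 68.6 and 48.4 FPKM in soft gels. The stiff libraries differed among themselves by a coefficient of variation of 0.949%, the smallest of the 7 genes, against 17.6% in the soft libraries. Oc90 averaged 127.9 ± 1.21 FPKM in stiff gels and 60.5 ± 10.7 FPKM in soft gels (SD, n = 3 each). Its log2 fold change was 1.08 ± 0.11 (SE).

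Otol1 encodes otolin, a collagen-like protein with a C1q domain that links otoconia to the otoconial membrane (chromosome 3, 70007613 to 70028708, plus strand). It was the most abundant of the 7 genes, at 299, 263 and 281 FPKM in stiff gels, against 223, 209 and 172 FPKM in soft gels. By its mean over all libraries it ranked 199 among the 15016 listed genes. The gap between the lowest stiff and the highest soft library was 40.2 FPKM. The log2 fold change of 0.49 ± 0.10 (SE) was the smallest of the 7 genes, and 2.22% of all tested genes had a larger one.

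The order of mean levels was the same in both gels, from Otol1 through Oc90, Tecta, Otog, Otoa and Otogl to Tectb. Tecta and Otog overlapped in their ranges in stiff gels and in soft gels. Otoa and Otogl overlapped in soft gels alone, where their means were 8.12 and 7.04 FPKM, and stood apart in stiff gels, at 18.6 and 11.3 FPKM. All other neighbours in the order had ranges that did not meet in either gel.

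Set against each other, the tectorial and the otoconial genes were both higher in stiff gels. The summed level of the 5 tectorial genes was 101.9 to 134 FPKM in stiff libraries and 45.5 to 61.5 FPKM in soft libraries. The summed level of Oc90 and Otol1 was 391 to 426 FPKM in stiff libraries and 219.97 to 287 FPKM in soft libraries. The otoconial genes therefore made up 76.0% to 80.1% of the summed FPKM of all 7 genes in stiff libraries and 82.4% to 83.2% in soft libraries. The mean log2 fold change was 0.97 over the tectorial genes and 0.79 over the otoconial genes, a difference of 0.19, or 0.16 without Tectb. That difference rose to 0.37 with a pseudocount of 0.1, which gives more weight to the low values of Tectb. Within the otoconial pair the changes were unequal: Otol1 exceeded Oc90 2.06-fold to 2.35-fold in stiff libraries and 3.05-fold to 3.54-fold in soft libraries, ranges that did not overlap.

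**Figure D2:**
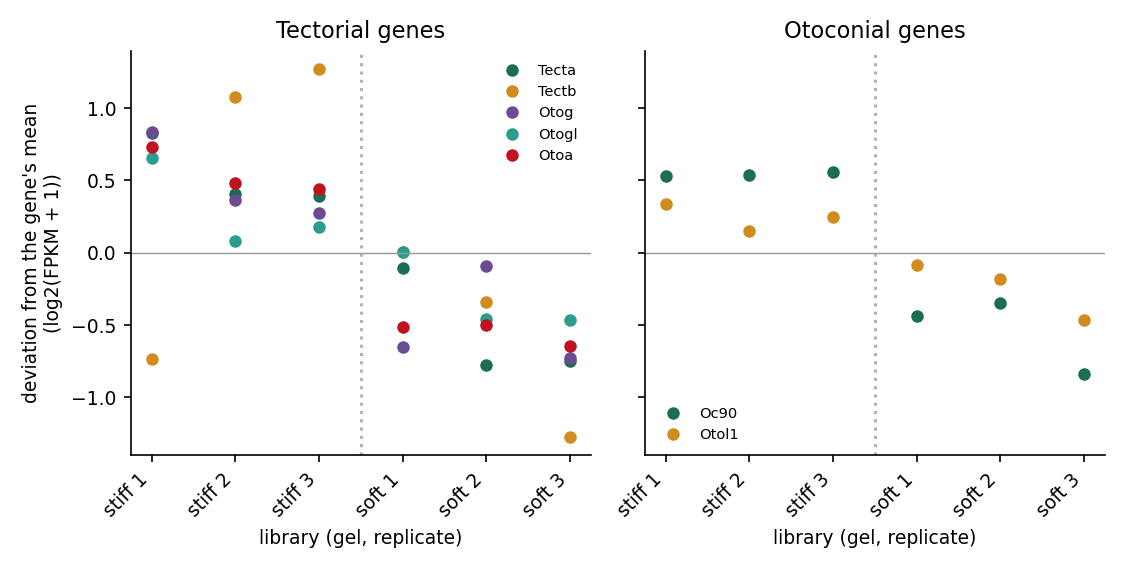
Deviation of each gene from its own mean over the 6 libraries, on log2(FPKM + 1), with tectorial genes in the left panel and otoconial genes in the right panel; stiff libraries stand left of soft libraries. Stiff replicate 1 is the highest library for Tecta, Otog, Otogl, Otoa and Otol1 and the lowest stiff library for Tectb, at -0.73.

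Single libraries shaped the size of these changes without turning any of them. In each of the 6 fits that left out 1 library, every one of the 7 genes stayed higher in stiff gels. Otoa ranged from 1.01 to 1.16 and Oc90 from 0.93 to 1.18 on the log2 scale, and both were called in 6 of 6 such fits. Tecta ranged from 0.94 to 1.30 and Otog from 0.81 to 1.18, and each was called in 3 of 6. Otol1 ranged from 0.38 to 0.56 and was called in 2 of 6. Tecta was not called without stiff replicate 1, soft replicate 2 or soft replicate 3. For Otog these libraries were stiff replicates 1 and 3 and soft replicate 3, and for Otol1 they were stiff replicates 1 and 3 and soft replicates 2 and 3. Otogl ranged from 0.43 to 0.76 and was called once, without soft replicate 1. Tectb ranged from 0.71 to 1.71, highest without stiff replicate 1, and was called in 0 of 6.

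**Figure D3:**
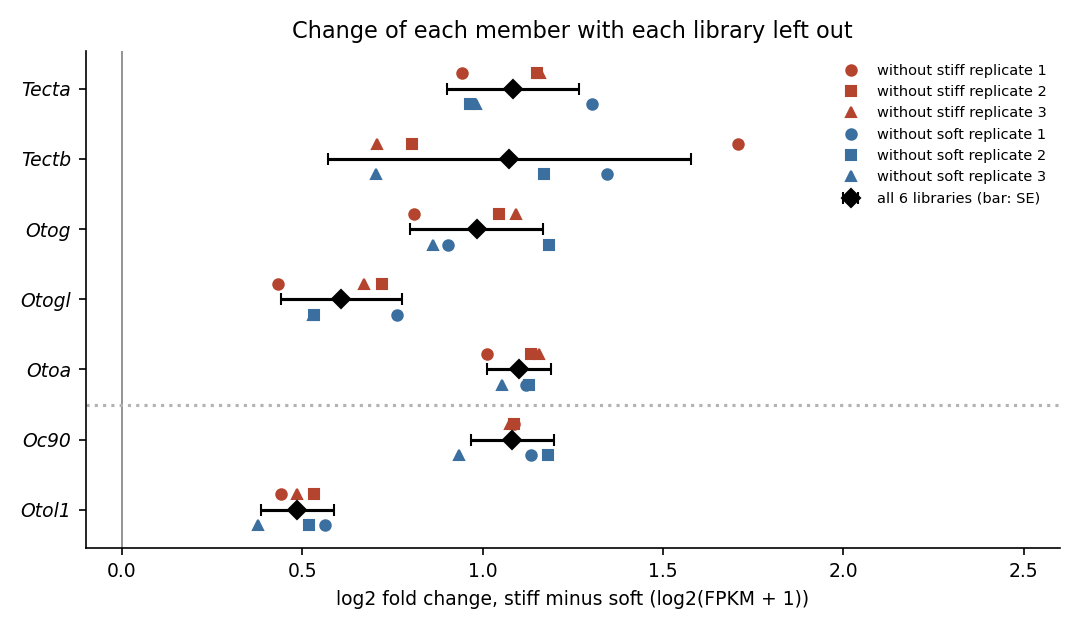
Log2 fold change of each gene, stiff minus soft, with all 6 libraries (diamond, bar SE) and with each library left out (red, a stiff library; blue, a soft library). All points lie right of 0; the Tectb points spread from 0.71 to 1.71 and those of Otoa from 1.01 to 1.16.

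RefSeq promoter windows of 250 bases before to 50 bases after the start were found for 5 of the 7 genes (build GRCm38.p6, the sequence of mm10); those of Otogl and Oc90 were not analysed here. Short motifs were searched on both strands: the SOX core ACAAAG, the TCF/LEF core TCAAAG, the RBPJ core TGGGAA, the TEAD core GGAATG, the TATA core TATAAA and the E-box CANNTG. The SOX and TCF/LEF cores share 5 letters. The windows of Otog, Tecta and Otoa are shown because these genes had the SOX or TCF/LEF core and were higher in stiff gels, and that of Otol1 because it held none of the 6 motifs. Capitals mark matches to any motif but the E-box.
Otog, chr7:46240737-46241036, plus strand: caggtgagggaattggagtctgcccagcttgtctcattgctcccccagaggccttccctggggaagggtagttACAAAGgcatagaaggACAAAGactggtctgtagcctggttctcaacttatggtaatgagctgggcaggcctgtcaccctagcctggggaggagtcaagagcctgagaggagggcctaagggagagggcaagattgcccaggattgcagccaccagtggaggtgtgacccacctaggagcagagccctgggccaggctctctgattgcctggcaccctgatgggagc
Tecta, chr9:42399898-42400197, minus strand: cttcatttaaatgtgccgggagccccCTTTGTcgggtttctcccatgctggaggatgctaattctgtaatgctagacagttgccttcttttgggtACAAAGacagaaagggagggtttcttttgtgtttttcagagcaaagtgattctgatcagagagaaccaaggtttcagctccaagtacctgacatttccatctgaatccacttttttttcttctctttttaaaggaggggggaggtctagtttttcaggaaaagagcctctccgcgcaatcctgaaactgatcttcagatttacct
Otoa, chr7:121083174-121083473, plus strand: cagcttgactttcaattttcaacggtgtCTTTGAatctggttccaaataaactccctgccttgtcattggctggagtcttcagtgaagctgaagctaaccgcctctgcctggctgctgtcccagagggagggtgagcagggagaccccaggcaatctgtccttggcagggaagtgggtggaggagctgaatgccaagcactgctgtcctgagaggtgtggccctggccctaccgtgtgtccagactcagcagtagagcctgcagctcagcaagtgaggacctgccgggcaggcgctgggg
Otol1, chr3:70007363-70007662, plus strand: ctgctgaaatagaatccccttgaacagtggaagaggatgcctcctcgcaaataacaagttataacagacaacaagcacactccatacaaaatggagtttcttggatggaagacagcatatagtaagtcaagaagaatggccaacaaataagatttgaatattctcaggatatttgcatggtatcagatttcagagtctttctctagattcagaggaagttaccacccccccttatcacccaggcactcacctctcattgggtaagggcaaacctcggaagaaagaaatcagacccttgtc
The Otog window held the SOX core 2 times, at -177 and -161 from the start, both on the plus strand of the window. The Tecta window, at the start site nearer to the GENCODE start of the gene, also held it 2 times, at -155 and, on the other strand, at -224. The other Tecta start site in RefSeq had an RBPJ core at 44 and no SOX core. Otoa had the TCF/LEF core once, at -222 on the other strand, and Tectb had the RBPJ core once, at -136 on the other strand. The Otoa window lay inside the GENCODE span of the gene, which starts at 121081650, so -222 is counted from a RefSeq start within that span. Over 32851 RefSeq promoter windows of the same length, 18.7% held the SOX core, 16.0% the TCF/LEF core, 25.6% the RBPJ core, 14.7% the TEAD core, 13.6% the TATA core and 72.3% an E-box. A match is a string of letters and not a shown binding site.

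The genes next to the 7 members were compared by the same test. Of 28 neighbouring protein-coding genes, 2 on each side of each member, 20 were in the table and 14 were tested. By limma 2 were called higher in stiff gels and 0 lower, beside 3.13% and 2.68% of all tested genes. One was Hhla1, 10045 bases upstream of Oc90 on the same strand. It was at 8.46, 6.77 and 5.57 FPKM in stiff gels, against 2.14, 1.38 and 1.31 FPKM in soft gels (log2 fold change 1.60 ± 0.16 SE, limma adjusted p = 0.00334). The other was Ush1c, the gene of the stereocilia scaffold harmonin, which lies 2483 bases from Otog and is read in the opposite direction. Ush1c was at 40.5, 36.6 and 36.7 FPKM in stiff gels, against 25.7, 28.1 and 21.0 FPKM in soft gels (log2 fold change 0.59 ± 0.10 SE, limma adjusted p = 0.0147). With any single library removed, Hhla1 remained called (highest limma adjusted p 0.0339), whereas Ush1c was lost without stiff replicate 1 or 3 (0.0757 at most). On the other side of Oc90, Efr3a was at 14.8 ± 0.71 FPKM in stiff gels and 14.4 ± 0.84 FPKM in soft gels (limma adjusted p = 0.807). Mettl9, 3320 bases from Otoa, was at 44.1 ± 2.43 FPKM in stiff gels and 42.1 ± 1.96 FPKM in soft gels (limma adjusted p = 0.634).

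Genes whose pattern over the 6 libraries was closest to that of Tecta, by the smallest distance between centred log2 values, were Wnt7a, Ebf3, Wscd2, Shisa2 and Ackr3. Wnt7a, a Wnt ligand, was the nearest at a distance of 0.152, with means of 12.2 FPKM in stiff gels and 5.71 FPKM in soft gels. The nearest of the other members to Tecta was Otoa, at 0.524, with 37 genes outside the 7 closer. The genes closest to Otol1 were Colgalt2, Nrxn3, St6galnac2, Fbxo32 and Tbc1d10a. Colgalt2, an enzyme that adds galactose to collagen domains, was the nearest at a distance of 0.0913, with means of 52.9 FPKM in stiff gels and 38.3 FPKM in soft gels. The nearest of the other members to Otol1 was Otogl, a tectorial gene, at 0.447, with 1064 genes outside the 7 closer. Oc90, the other otoconial gene, was at 0.760 from Otol1, with 8313 genes outside the 7 closer. This distance also grows with a difference in the size of the log2 fold change, which was 1.08 for Oc90 and 0.49 for Otol1. The Pearson correlation of Oc90 with Otol1 over the 6 libraries was 0.959. These are descriptions over 6 libraries that share the split by gel.

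Of 11 known partners of the tectorial proteins, 9 were listed and 8 were tested. By limma, 0 were higher and 1 was lower, beside 3.13% and 2.68% of all tested genes. The median log2 fold change was 0.18, beside 0.03 over all tested genes. At an unadjusted p under 0.05 the list had 3 higher genes and 1 lower, and limma-voom called 1 higher and 1 lower. The gene that fell was Col11a1, a fibrillar collagen chain of the tectorial membrane, at 69.4, 61.4 and 65.0 FPKM in stiff gels, against 93.8, 88.1 and 78.2 FPKM in soft gels (log2 fold change -0.40 ± 0.08 SE, limma adjusted p = 0.0249). Col9a2, a chain of type IX collagen and the most abundant of the list, was at 481 ± 35.6 FPKM in stiff gels and 354 ± 52.4 FPKM in soft gels (limma adjusted p = 0.0509). Without soft replicate 1, Col9a2 was called higher (limma adjusted p = 0.0102) and the list had 3 higher genes. Col11a1 was not called when any stiff library or soft replicate 2 was removed (highest limma adjusted p 0.102). Ceacam16 and Strc, of the same list, were not analysed here.

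Most tested genes that take part in otoconia formation were not called. Of 14 genes, 13 were listed and 9 were tested. By limma, 1 was higher, 1 was lower and 7 were not called, beside 3.13% higher and 2.68% lower among all tested genes. Unadjusted p under 0.05 and limma-voom each also gave 1 higher and 1 lower. The median log2 fold change was 0.08, beside 0.03 over all tested genes. Noxo1, the organizer subunit of the NADPH oxidase needed for otoconia in mice, was at 10.8 ± 0.69 FPKM in stiff gels and 8.24 ± 0.45 FPKM in soft gels (SD, n = 3 each; log2 fold change 0.36 ± 0.07 SE, limma adjusted p = 0.0272). Spp1, which encodes osteopontin, a phosphoprotein of mineralized tissue that is also present in otoconia, fell to 123 ± 16.4 FPKM in stiff gels, against 357 ± 111 FPKM in soft gels (SD, n = 3 each; log2 fold change -1.49 ± 0.20 SE, limma adjusted p = 0.00918). Spp1 thus ran opposite in direction to Oc90 and Otol1, and soft replicate 1 was its lowest soft library. Sparc, a calcium-binding matrix protein and the most abundant of the list, was at 1588 ± 44.1 FPKM in stiff gels and 1503 ± 68.8 FPKM in soft gels (limma adjusted p = 0.624). Noxo1 was not called without stiff replicate 1 or 3 or soft replicate 2 or 3 (highest limma adjusted p 0.103), nor with the replicate block (0.0517), and Spp1 was lost without soft replicate 2 (0.0515).

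Relatives by domain were mostly low. Of 17 other genes with zona pellucida or von Willebrand D domains, 10 were listed, 7 of them under 1 FPKM in every library, and of the 3 tested 0 were called by limma, 1 was higher and 1 lower at an unadjusted p under 0.05, and limma-voom called 1 lower. The most abundant was Eng, the TGF-beta co-receptor endoglin, at 23.1 ± 2.07 FPKM in stiff gels and 32.8 ± 6.53 FPKM in soft gels (limma adjusted p = 0.0766, and called lower with the replicate block at 0.0323). Of 18 relatives of otoancorin, otoconin and otolin, 12 were listed and 5 were tested. By limma, 0 were higher and 1 was lower, beside 3.13% and 2.68% of all tested genes. Unadjusted p under 0.05 gave 1 and 1, and limma-voom called 0 and 1. Msln, the gene of mesothelin and a relative of Otoa, fell to 8.74 ± 0.19 FPKM in stiff gels, against 17.1 ± 4.28 FPKM in soft gels (SD, n = 3 each; log2 fold change -0.86 ± 0.15 SE, limma adjusted p = 0.0162). Removing stiff replicate 1 or 3 or soft replicate 2 lost that call (highest limma adjusted p 0.0785). In that list the most abundant gene, the phospholipase Pla2g12a, was at 18.5 ± 1.27 FPKM in stiff gels and 16.6 ± 1.19 FPKM in soft gels (limma adjusted p = 0.295).

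Of 20 prosensory and supporting cell markers, all were listed and 18 were tested. By limma, 8 were higher (Sparcl1, Sox2, Isl1, Lfng, Heyl, Jag1, Lgr5 and Gjb6) and 0 were lower, beside 3.13% and 2.68% of all tested genes. At an unadjusted p under 0.05, 16 were higher and 1 was lower, beside 2562 of the 11780 tested genes in either direction. For this list limma-voom called 11 higher and 0 lower. The median log2 fold change was 0.51, beside 0.03 over all tested genes. The summed level was 1574 to 1657 FPKM in stiff libraries and 1092 to 1388 FPKM in soft libraries. Sparcl1, a secreted matrix glycoprotein, was at 146 ± 11.7 FPKM in stiff gels and 73.2 ± 10.5 FPKM in soft gels (limma adjusted p = 0.00446) and remained called with any single library removed. Sox2, a transcription factor of prosensory cells, was at 5.03 ± 0.62 FPKM in stiff gels and 1.48 ± 0.80 FPKM in soft gels (limma adjusted p = 0.0104), and Isl1, a transcription factor of otic precursors, was at 30.7 ± 1.56 FPKM in stiff gels and 16.6 ± 3.48 FPKM in soft gels (limma adjusted p = 0.0104). Sox2, Isl1, Lfng and Heyl were lost without stiff replicate 1 or soft replicate 2 (highest limma adjusted p 0.0592, 0.0619, 0.0589 and 0.0682). Jag1 and Lgr5 were lost without these or stiff replicate 3 (0.0705 and 0.0785), and Gjb6 when any single library was removed (0.141). The count of 8 was 1 without stiff replicate 1, 1 without soft replicate 2 and 14 without soft replicate 1, where Gjb6 was not among them. The most abundant of the list was the calcium-binding S100a1, at 614 ± 25.2 FPKM in stiff gels and 472 ± 65.4 FPKM in soft gels (limma adjusted p = 0.0559). The part of this marker shift in the higher Tecta, Otog and Otoa was not tested.

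Calls among greater epithelial ridge and interdental cell markers went both ways and depended on single libraries. Of 14 genes, 11 were listed and 10 were tested. By limma, 3 were higher (Fgf10, Net1 and Ntf3) and 1 was lower (Itga8), beside 3.13% and 2.68% of all tested genes. The count of 3 higher was 0 without stiff replicate 1, stiff replicate 3 or soft replicate 2, and 6 without soft replicate 1. At an unadjusted p under 0.05, 5 were higher and 1 was lower, and limma-voom called 3 higher and 1 lower. The median log2 fold change was 0.24, beside 0.03 over all tested genes. The summed level was 1570 to 1624 FPKM in stiff libraries and 1102 to 1663 FPKM in soft libraries, so the groups overlapped. Fgf10, a growth factor of the cochlear sensory primordium, was at 18.7 ± 0.29 FPKM in stiff gels and 10.0 ± 2.77 FPKM in soft gels (limma adjusted p = 0.0163), and was lost without stiff replicate 1 or 3 or soft replicate 2 (0.0789 at most). Itga8, an integrin subunit gene, was at 10.96 ± 1.34 FPKM in stiff gels and 19.4 ± 4.92 FPKM in soft gels (limma adjusted p = 0.033). Net1 had a log2 fold change of 0.31, not called with the replicate block (limma adjusted p = 0.0518), and Ntf3, a neurotrophin gene, of 0.65. Itga8, Net1 and Ntf3 kept their calls without soft replicate 1 and lost them when any other library was removed (highest limma adjusted p 0.123, 0.148 and 0.135). These genes were also not called with no filter on low values (limma adjusted p = 0.0618, 0.0563 and 0.0603). Epyc, the most abundant of the list and a proteoglycan gene, was at 637 ± 17.9 FPKM in stiff gels and 575 ± 159 FPKM in soft gels (limma adjusted p = 0.599).

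Oc90 is made by nonsensory epithelium in the mouse inner ear. Of 17 markers of the inner ear roof, Reissner's membrane and the endolymphatic duct, 14 were listed and 10 were tested. By limma, 0 were higher and 2 were lower, beside 3.13% and 2.68% of all tested genes. The median log2 fold change was -0.17, beside 0.03 over all tested genes. At an unadjusted p under 0.05, 1 was higher and 4 were lower, and limma-voom called 0 higher and 2 lower. The summed level was 88.4 to 98.7 FPKM in stiff libraries and 94.9 to 103 FPKM in soft libraries. Msx2, a homeobox gene, was at 3.73 ± 0.48 FPKM in stiff gels and 6.47 ± 0.64 FPKM in soft gels (limma adjusted p = 0.0104). Gata2 was at 9.46 ± 0.70 FPKM in stiff gels and 12.9 ± 0.72 FPKM in soft gels (limma adjusted p = 0.0188). Without stiff replicate 1 or soft replicate 2 neither was called, and Gata2 was also lost without stiff replicate 2 (highest limma adjusted p 0.0554 for Msx2 and 0.0822 for Gata2). With the replicate block 1 gene of the list was called higher. The most abundant of the list, the lysophospholipase gene Enpp2, was at 59.0 ± 3.75 FPKM in stiff gels and 54.4 ± 3.92 FPKM in soft gels (limma adjusted p = 0.424), and Otx2, Wnt4, Slc26a7 and Atp6v0a4 were under 1 FPKM in every library.

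Other cell types were checked by their own markers. Of 15 hair cell markers, 10 were listed and 5 were tested. Gfi1, Otof, Slc17a8, Tmc1 and Cdh23 were under 1 FPKM in every library. By limma, Ush1c and Calb2 were higher and 0 were lower, beside 3.13% and 2.68% of all tested genes. Unadjusted p under 0.05 gave 2 higher and 1 lower. The median log2 fold change was 0.09, beside 0.03 over all tested genes. The summed level was 72.4 to 79.8 FPKM in stiff libraries and 52.2 to 60.9 FPKM in soft libraries. That sum included Ush1c, the most abundant of the list, at 37.9 ± 2.20 FPKM in stiff gels and 24.9 ± 3.57 FPKM in soft gels. Calb2, a calcium buffer gene, was at 10.6 ± 2.94 FPKM in stiff gels and 5.03 ± 1.65 FPKM in soft gels (limma adjusted p = 0.0409), a call that held without soft replicate 1 and with no other library removed (0.13 at most). Calb2 was also not called with no filter on low values (limma adjusted p = 0.0748). Of 12 mesenchyme markers, 9 were tested and 0 were called by limma (1 lower at an unadjusted p under 0.05 and 1 lower by limma-voom), with summed levels of 760 to 818 FPKM in stiff libraries and 718 to 872 FPKM in soft libraries. The most abundant, Vim, which made up most of that sum, was at 581 ± 9.72 FPKM in stiff gels and 559 ± 45.7 FPKM in soft gels. Col1a1 and Col1a2 of the same list were under 1 FPKM in every library. Of 8 glial markers, 6 were tested. By limma, 3 were higher, S100b and Pmp22 among them, and 0 were lower, beside 3.13% and 2.68% of all tested genes. Unadjusted p under 0.05 gave 4 higher and 0 lower, and limma-voom also called 4 and 0. The median log2 fold change was 0.39, beside 0.03 over all tested genes. Glial sums were 124 to 149 FPKM in stiff libraries and 97.1 to 129 FPKM in soft libraries. S100b was lost without stiff replicate 1 or 3 or soft replicate 2 or 3, and Pmp22 when any library but soft replicate 1 was removed (highest limma adjusted p 0.126 and 0.0833). Sox10, the most abundant of that list, was at 85.2 ± 9.26 FPKM in stiff gels and 77.8 ± 13.4 FPKM in soft gels. Of 9 neuron markers, 3 were tested and 0 were called by limma or limma-voom (2 higher at an unadjusted p under 0.05), and the most abundant, Map2, was at 3.28 ± 0.22 FPKM in stiff gels and 2.57 ± 0.31 FPKM in soft gels (limma adjusted p = 0.128). Of 11 blood, endothelial and muscle markers, 2 were tested; Kdr, a VEGF receptor gene, fell to 10.7 ± 2.05 FPKM in stiff gels, against 24.7 ± 5.16 FPKM in soft gels (limma adjusted p = 0.0104, but not called without stiff replicate 1 or soft replicate 2, at most 0.0567), while Pecam1 was under 1 FPKM in every library. The part of these markers in the results above was not tested.

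**Figure D4:**
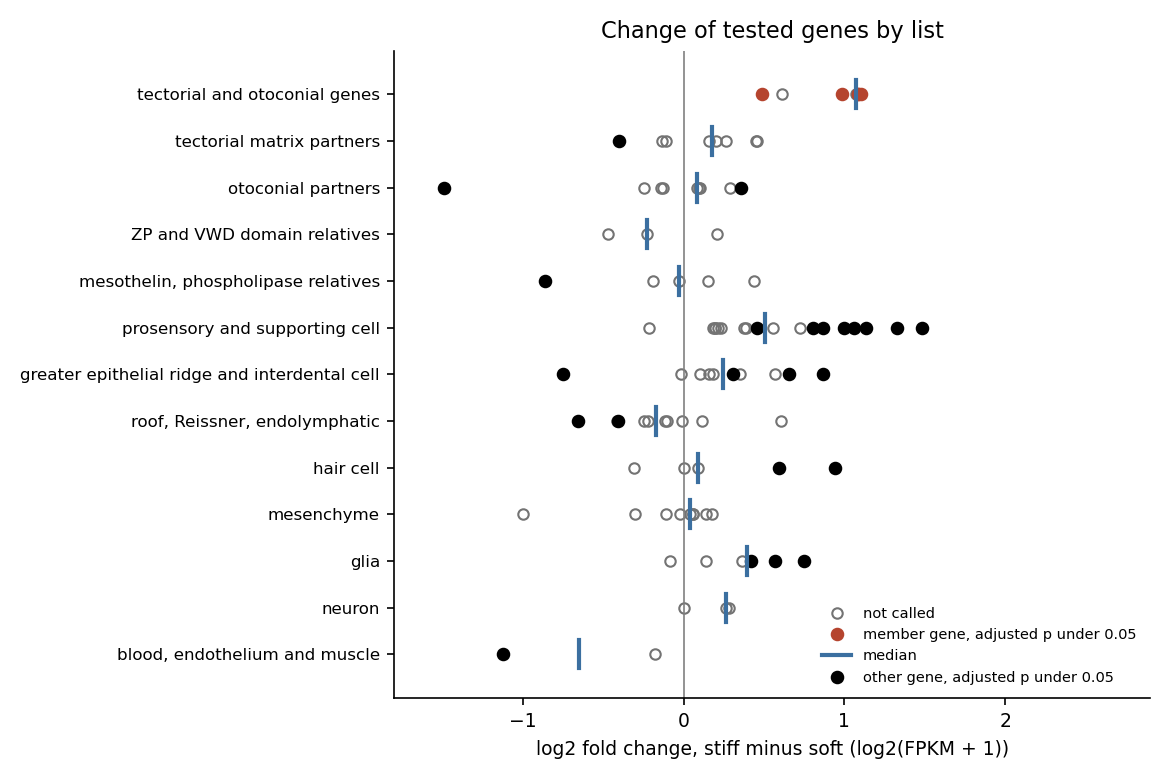
Log2 fold change, stiff minus soft, of every tested gene in each list (filled, adjusted p under 0.05; open, not called; blue bar, median of the list). The 7 member genes in the top row lie between 0.49 and 1.10, and the partner lists below them have medians of 0.18 and 0.08.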

How the data were processed

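Total RNA of 6 organoid libraries was sequenced with a kit that does not mark strand, per the labels' protocols. Per the submitters' processing notes, TopHat2 2.1.1, DESeq2 and the mouse build mm10 were used; counter and annotation are not given in the sources used here. A single table of 15016 genes was deposited. Its expression columns were deposited as normalized values and taken as FPKM because of how they scale. The base mean is a signal (mean of the authors' normalized counts), and the log2 fold change with its error, the ratio or fold change, the Wald score and the p-value and q-value are those of the authors' deposited comparison, per the file headers.

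Reads were rebuilt from the FPKM and base mean; 100.0% of values were whole within 0.05 reads. Genes with a mean of at least 1 FPKM in either group (11780) were fitted as log2(FPKM + 1) with limma 3.58.1 in R 4.3.3 (eBayes with trend, no block), with Benjamini-Hochberg adjustment over all tested genes. Log2 fold changes are stiff minus soft and understate the change of low genes. The test was checked on simulated data with an assumed spread between libraries. It called 99 of 99 genes changed 2-fold, 76 of 98 changed 1.5-fold and 13 of 11523 left unchanged. Changes were simulated only in genes with many reads, so the check does not cover a low gene such as Tectb. The members and lists were chosen with earlier results of these data known. All 7 members were named; in each list the called genes (at most 3 per direction, lowest adjusted p) and the most abundant gene were named, together with the 5 genes closest to the most abundant member of each set. Some listed genes were named after their values were seen: those under 1 FPKM or not analysed, 5 further prosensory genes called higher, and, of the 28 neighbours, the 4 tested ones nearest to a member. One listed gene that the rule names is not reported here. A count of 0 reads allows up to 3 reads, 0.168 to 0.186 CPM, for counting error only. Gene positions are from GENCODE M21 and promoters from RefSeq. Alternatives were other pseudocounts, no filter, median-ratio scaling, leaving out each library, a replicate block and, added after seeing the data, limma-voom on rebuilt reads.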

Additional observations from a re-analysis of the deposited data

How the results depend on the processing

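All 7 genes kept a higher level in stiff gels in each of the 12 alternatives. The count of members called higher (5 of 7) ranged from 2 to 6 when 1 library was left out and was 0 for lower in every alternative. Over all genes, 50 to 860 were called higher and 15 to 767 lower with 1 library left out, against 369 and 316; leaving out soft replicate 1 gave the highest counts and leaving out soft replicate 2 the lowest. The tectorial minus otoconial difference of 0.19 moved by more than the spread between replicates (0.0776) with a pseudocount of 0.1 (0.37) and with limma-voom on rebuilt reads (0.42), and stayed between 0.15 and 0.26 in the other alternatives; Tectb had a log2 fold change of 1.82 and 2.03 in those 2 fits. With 1 library left out, 2 uncalled genes turned: Epyc ranged from -0.013 (without soft replicate 3) to 0.385 and Efr3a from -0.0061 (without soft replicate 1) to 0.067. The planned count tests of 2 other packages were not run, since the values used here are FPKM; limma-voom called 403 genes higher, Otogl among them, and 468 lower.

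Same-numbered libraries did not deviate together (correlations of 0.00873, 0.219 and -0.211 for numbers 1 to 3), so the numbers were not taken as pairs. With the replicate number as a block, 381 genes were called higher, 329 lower, and 6 of the 7 members higher, with Otogl added; the tectorial minus otoconial difference stayed at 0.19, Noxo1 and Net1 lost their calls (limma adjusted p = 0.0517 and 0.0518) and Eng and Nrxn3 gained one (0.0323 and 0.0447); no other gene named here changed its call.

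Tectb had 4 to 205 reads per library, and the other members had at least 750 reads in every library. The coefficient of variation of Tectb in FPKM was 72.9% in the stiff libraries and 83.6% in the soft libraries. The part of read depth in that spread was not tested.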
